A study of Mus musculus with 4 samples.

Results

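The antiviral interferon-stimulated genes described here are 47 mouse genes that interferons induce in most cell types, chosen by name and without interferon-inducible immunity-related and guanylate-binding GTPases, Schlafen and Ly6 genes. Each was found once among the 38282 gene IDs listed, by its Ensembl ID in GENCODE M21. They were measured in 4 RNA-seq libraries of splenic naive CD4+ T cells from C57BL/6 mice. Th0+Dopa holds 2 libraries of cells given dopamine in Th0 culture, and Th0 holds 2 libraries of cells in the same culture without it, all harvested on day 4. Th0 culture usually means T cell activation without added cytokines that favour one T helper type. The sources used here give neither the dopamine dose and schedule nor the age and number of mice, and they do not say that libraries came from separate cultures, so a p-value reflects the spread among these libraries, which may be technical. The study links dopamine-releasing nerves to Th2 inflammation of the lung after birth, and this comparison shows how the RNA of cultured CD4+ T cells differed with dopamine.

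Interferons bind receptors whose kinases, Jak1 and Tyk2 for type I interferon and Jak1 and Jak2 for interferon gamma, activate STAT proteins. Irf9 joins activated STAT proteins in the complex ISGF3, which binds the interferon-stimulated response element (ISRE) of target promoters, while interferon gamma acts mainly through the gamma-activated site (GAS). The induced proteins sense viral nucleic acid, block viral RNA and particle release, or feed back on the pathway, and many are made at a low level in T cells without infection.

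The promoters of 3 genes show the element through which interferons induce many such genes: Bst2, which passed the test as higher, and Isg15 and Ifit1, whose differences pointed in opposite directions without passing it. The 250 bases before the RefSeq transcription start site are printed 5′ to 3′ on the gene's strand, with matches to the ISRE core (GAAA, any 2 bases, GAAA) on either strand in capitals.
Bst2 (GRCm38, chr8:71537473-71537722, minus strand): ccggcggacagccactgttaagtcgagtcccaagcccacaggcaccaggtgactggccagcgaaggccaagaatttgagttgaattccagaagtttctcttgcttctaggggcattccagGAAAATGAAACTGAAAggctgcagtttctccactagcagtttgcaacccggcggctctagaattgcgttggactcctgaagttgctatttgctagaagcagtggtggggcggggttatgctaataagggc
Isg15 (GRCm38, chr4:156200819-156201068, minus strand): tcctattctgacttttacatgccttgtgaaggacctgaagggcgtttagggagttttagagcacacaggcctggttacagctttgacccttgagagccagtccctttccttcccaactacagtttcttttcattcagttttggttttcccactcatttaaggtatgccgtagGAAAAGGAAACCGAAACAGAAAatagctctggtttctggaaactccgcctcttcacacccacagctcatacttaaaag
Ifit1 (GRCm38, chr19:34640639-34640888, plus strand): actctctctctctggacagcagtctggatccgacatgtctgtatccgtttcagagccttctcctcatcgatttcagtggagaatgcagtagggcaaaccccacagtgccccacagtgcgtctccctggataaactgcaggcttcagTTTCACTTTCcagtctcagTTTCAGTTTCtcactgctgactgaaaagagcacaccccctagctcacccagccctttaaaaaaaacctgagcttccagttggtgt
Neighbouring matches overlap in Bst2 (2 matches, starting 130 and 124 bases before the start site) and in Isg15 (3 matches, at 78, 72 and 66 bases), and Ifit1 holds 2 separate matches on the opposite strand, at 104 and 85 bases. RefSeq windows from 250 bases before to 50 after the start site existed for 35 of the 47 genes, 46 windows in all (GRCm38.p6). The ISRE core was found in 15 of these 46 windows (32.6%), against 3.44% of all 32851 windows. The GAS sequence (TTC, any 3 bases, GAA), which is its own reverse complement, was found in 8 of 46 (17.4%), against 8.30% of all windows, and in the Bst2 window it overlapped the ISRE core. A match is a stretch of letters and was not shown to be a bound site.

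Expression is given as FPKM, a fragment count divided by transcript length and by the library's mapped fragments. The libraries numbered 2 were deposited in one table and those numbered 3 in another. A gene was tested if its FPKM averaged 1 or more across the 4 libraries, which held for 36 of the 47 members and for 11423 genes in all. Differences are Th0+Dopa minus Th0 on the log2(FPKM + 1) scale, averaged over the 2 tables. They are given ± limma's moderated standard error (SE), which draws on the spread of all tested genes, not of the 2 tables alone. The limma fit with the table as a block gave p-values, adjusted by Benjamini-Hochberg over all 11423 genes. A gene passed at an adjusted p under 0.05. The scale understates the change of genes expressed at a few FPKM. Summed FPKM was 794873 to 880583 in Th0+Dopa libraries and 687066 to 715110 in Th0 libraries, and small RNA genes took 20.6% to 25.99% of it in Th0+Dopa and 16.5% to 18.3% in Th0 libraries. Estimated from low values, 1 fragment on a 1 kb transcript was worth 0.159 and 0.156 FPKM in Th0+Dopa 2 and 3, and 0.155 and 0.205 FPKM in Th0 2 and 3, so values under 1 FPKM rest on few fragments.

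Of the 36 tested interferon-stimulated genes, 1 rose and 1 fell with dopamine. Bst2 was the member that rose (1 of 36, against 6.28% of all tested genes called higher), and Zbp1 the member that fell (1 of 36, against 4.39% of all tested genes called lower). The other 34 tested members did not pass. Of the 36, 24 had a negative difference and 12 a positive one. Of all 11423 tested genes, 5415 were negative and 6008 positive. The 36 members had a median of -0.28, against 0.03 over all tested genes. The median was -0.28 in the table of libraries numbered 2 and -0.25 in that of libraries numbered 3. It moved to -0.43 without Th0+Dopa 3 and to -0.14 without Th0 3, and to -0.51 with libraries scaled to a common sum, where the median of all genes was -0.20. In both tables alike, 19 members were below 0 (32.3% of all tested genes were) and 10 were above 0 (37.6% of all tested genes). At an unadjusted limma p under 0.05 there were 16 members (27.8% of all tested genes), 10 of them lower (12.2% of all tested genes) and 6 higher (15.7%). Both Th0+Dopa libraries lay below both Th0 libraries for 16 tested members (25.6% of all tested genes), and above both for 8 (31.4%).

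**Figure D1:**
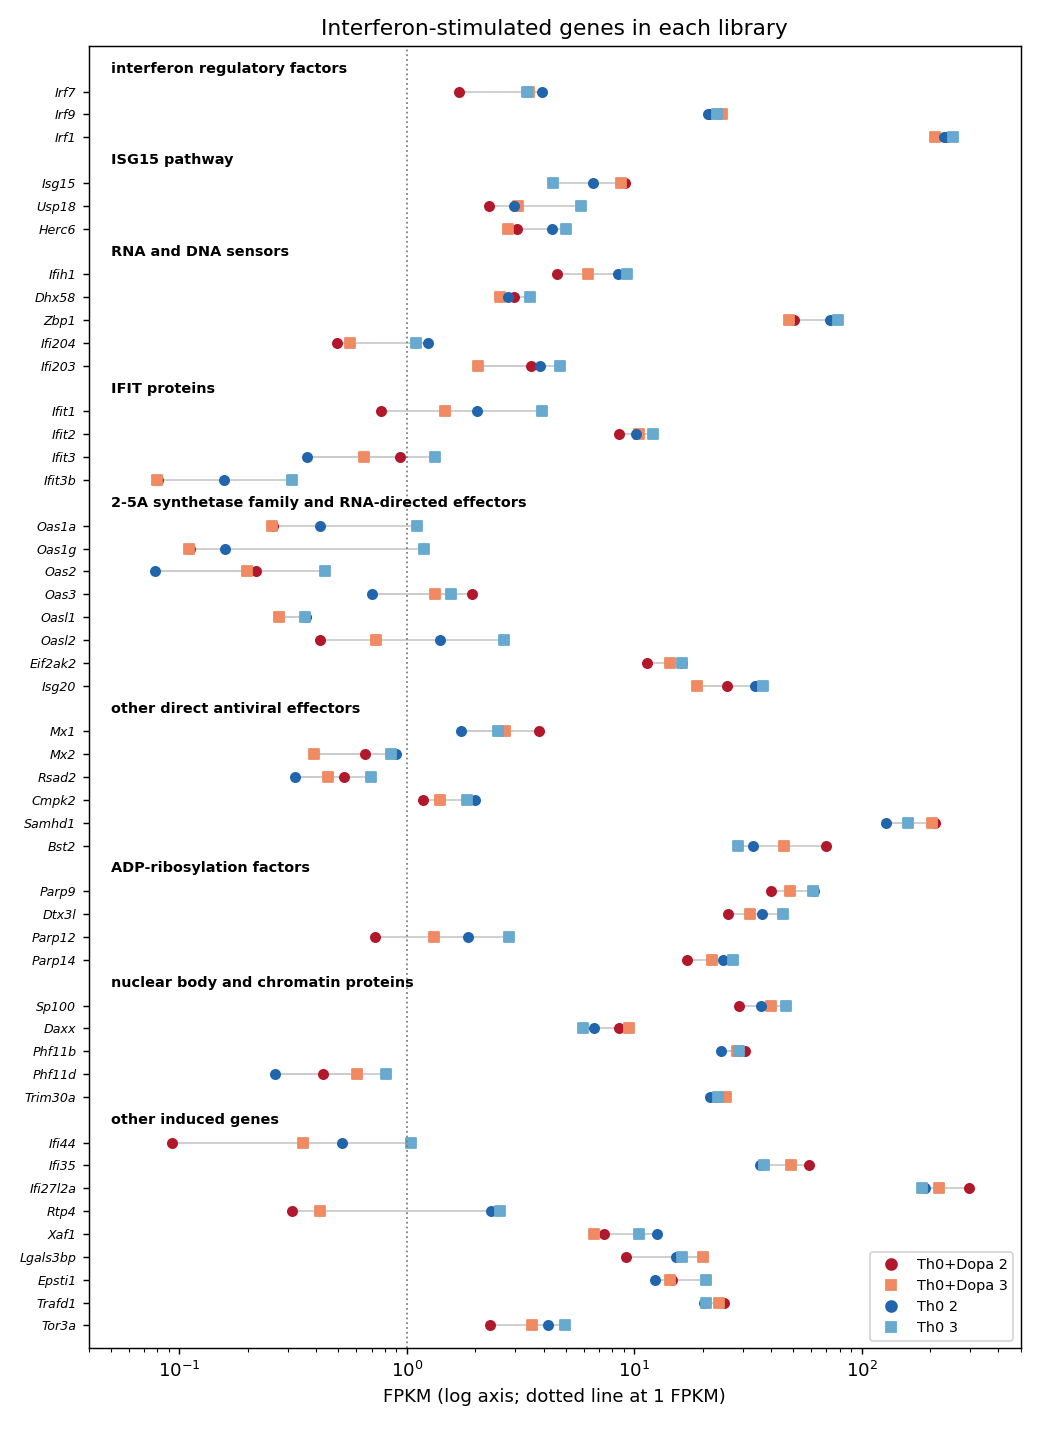
FPKM (log axis) of the 47 interferon-stimulated genes in each library, by role. Red and orange points are Th0+Dopa libraries, blue points Th0 libraries, circles are the libraries numbered 2 and squares those numbered 3. Irf1, Ifi27l2a and Samhd1 exceed 100 FPKM in every library, while 11 genes average under 1 FPKM, left of or near the dotted line.

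**Figure D2:**
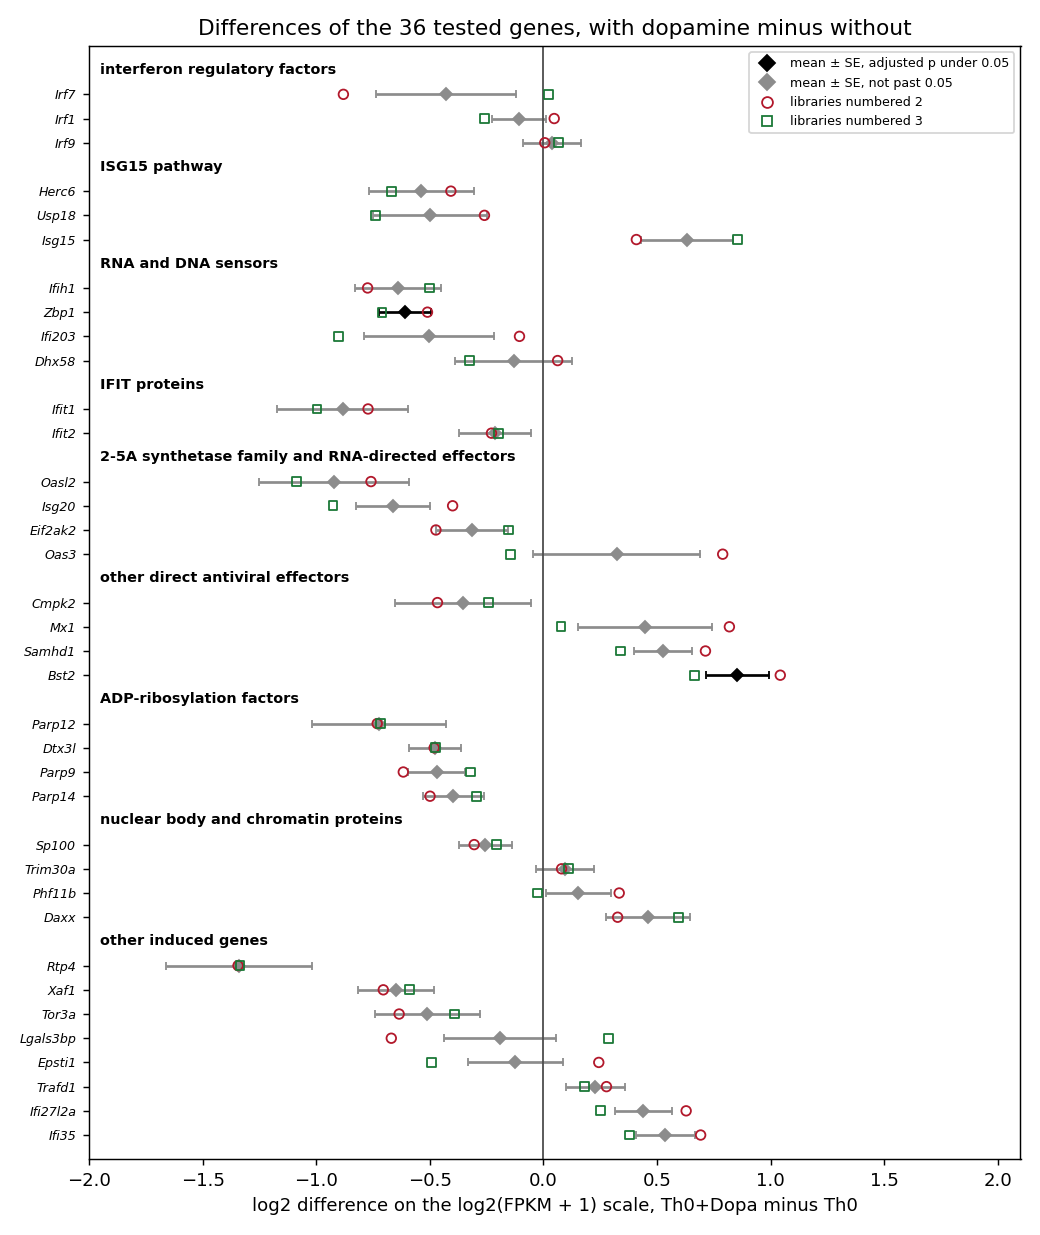
log2 differences of the 36 tested genes, Th0+Dopa minus Th0. Diamonds are the mean over the 2 tables and bars limma's moderated SE, black where the adjusted p is under 0.05. Open circles and squares are the differences within each table. Bst2 lies at 0.85 and Zbp1 at -0.61, and members of 1 role often lie on both sides of 0.

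The libraries were first checked against their label. Summed FPKM of 12 T cell markers was 2180 and 2078 in Th0+Dopa 2 and 3, and 2089 and 2149 in Th0 2 and 3, and each of the 12 was above 0 in every library. Of the 12, Cd3d and Cd5 rose and Trac fell (0.48, 0.96 and -0.70; limma adjusted p = 0.0398, 0.00623 and 0.0148). The mitochondrial share of FPKM was 1.55% and 3.35% in Th0+Dopa 2 and 3, against 5.64% and 8.41% in Th0 2 and 3, and 15974 and 16276 genes were above 0 in Th0+Dopa, against 17833 and 19177 in Th0 libraries. Of 13 tested macrophage and dendritic cell markers 12 fell, with summed levels over 14 markers of 66.97 to 67.31 FPKM in Th0+Dopa libraries and 484 to 645 FPKM in Th0 libraries. All 8 tested granulocyte and mast cell markers fell, with sums over 9 markers of 46.5 to 50.04 FPKM in Th0+Dopa and 446 to 593 FPKM in Th0 libraries. Elane, a neutrophil elastase gene, was listed at 0 in both Th0+Dopa libraries, and every other marker of these 2 lists was above 0 in all 4 libraries. Plasmacytoid dendritic cells are the main makers of type I interferon and carry much Bst2; their 7 markers summed to 2.96 to 4.40 FPKM in Th0+Dopa and 4.94 to 5.27 FPKM in Th0 libraries, with Siglech at 0 in both Th0+Dopa libraries Cox6a2 at 0 in both Th0 libraries and Klk1 at 0 in all 4. The 6 B cell markers summed to 3.69 and 5.11 FPKM in Th0+Dopa 2 and 3, and to 2.51 and 5.32 FPKM in Th0 2 and 3. The 47 interferon-stimulated genes summed to 1264 and 1159 FPKM in Th0+Dopa 2 and 3, and to 1099 and 1203 FPKM in Th0 2 and 3. The 3 most abundant were Ifi27l2a, Irf1 and Samhd1. Without them the sums were 518 and 527 FPKM in Th0+Dopa and 549 and 607 FPKM in Th0 libraries, with both Th0+Dopa libraries lower. Of the 3 left out, Ifi27l2a and Samhd1 were higher in both Th0+Dopa libraries and Irf1 overlapped. Their removal itself thus shaped this order. Fewer cells of a type and less RNA per cell cannot be told apart in such bulk samples, and the part of myeloid cells and of these library measures in the differences below was not tested.

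**Figure D3:**
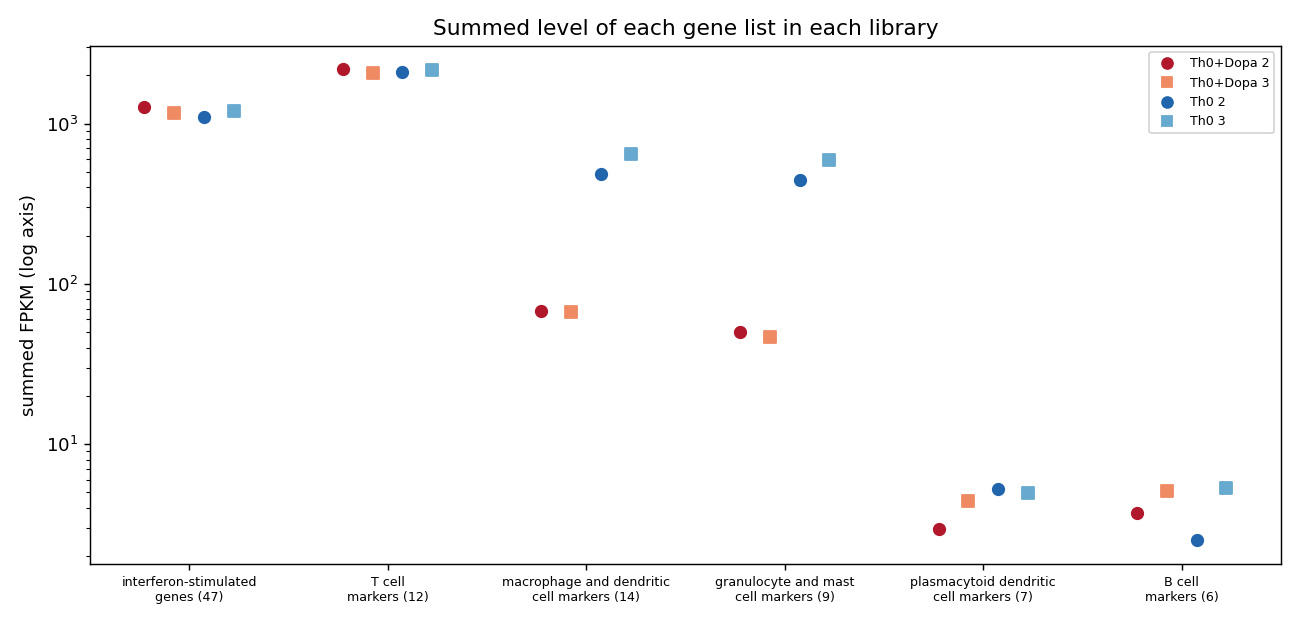
Summed FPKM (log axis) of the interferon-stimulated genes and of 5 cell type marker lists in each library, with the number of genes in brackets. The sums of all 47 interferon-stimulated genes, of which Ifi27l2a, Irf1 and Samhd1 make up a large part, overlap between groups. So do those of T cell markers, while those of macrophage and granulocyte markers are lower in both Th0+Dopa libraries.

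None of the 3 interferon regulatory factors among the members passed. Irf1, an interferon regulatory factor that interferon gamma induces, was the most abundant member by mean FPKM. It had 239 and 209.7 FPKM in Th0+Dopa 2 and 3, and 231 and 251 FPKM in Th0 2 and 3. The groups overlapped, and the difference was -0.11 ± 0.12 (95% interval -0.40 to 0.19, limma adjusted p = 0.611). Irf9, the DNA-binding subunit of ISGF3, had 21.2 and 24.3 FPKM in Th0+Dopa and 21.1 and 23.1 FPKM in Th0 libraries. Its difference of 0.04 ± 0.13 (95% interval -0.28 to 0.35) turned to -0.21 with libraries scaled to a common sum, where the median of all tested genes was -0.20. Irf7, the factor that amplifies type I interferon production, had 1.69 and 3.43 FPKM in Th0+Dopa and 3.95 and 3.36 FPKM in Th0 libraries. Its 2 tables differed in sign (-0.88 and 0.02), and the difference was -0.43 ± 0.31 (adjusted p = 0.416).

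The ISG15 pathway attaches a ubiquitin-like protein to newly made proteins, and Isg15 had a positive difference where Usp18 and Herc6 had negative ones, none of which passed. Isg15, the modifier itself (chromosome 4, 156199424 to 156200818, GRCm38), had 9.08 and 8.73 FPKM in Th0+Dopa and 6.59 and 4.39 FPKM in Th0 libraries. Both dopamine libraries were above both others, by 0.63 ± 0.20 (95% interval 0.13 to 1.13), but the limma adjusted p was 0.112. Without Th0 3 the difference was 0.37. By the fragment estimate these values stood for about 43.2 and 42.3 fragments in Th0+Dopa, and 32.2 and 16.2 fragments in Th0 libraries. Usp18, the protease that removes ISG15 and also restrains the type I interferon receptor, had 2.30 and 3.10 FPKM in Th0+Dopa and 2.95 and 5.83 FPKM in Th0 libraries. The difference was -0.50 ± 0.25 (adjusted p = 0.259), and the groups overlapped, with Th0 3 standing highest. Herc6, the main ISG15 ligase in mice, was at -0.54 ± 0.23 (adjusted p = 0.199), with both Th0+Dopa libraries (3.05 and 2.80 FPKM) under both Th0 libraries (4.37 and 5.03 FPKM).

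Zbp1 was the one sensor of foreign nucleic acid that passed, and all 4 tested sensors had a negative mean difference. Zbp1 (chromosome 2, 173206612 to 173218923), a Z-form nucleic acid sensor that can start necroptosis, had 50.7 and 47.9 FPKM in Th0+Dopa 2 and 3, against 72.6 and 79.0 FPKM in Th0 2 and 3. Means were 49.3 ± 1.99 FPKM in Th0+Dopa and 75.8 ± 4.50 FPKM in Th0 libraries (SD, n = 2 each, levels set across separately made tables). Both dopamine libraries were lower, and Zbp1 fell by 0.61 ± 0.11 on the log2 scale (95% interval -0.89 to -0.33, limma adjusted p = 0.0311). It still passed after correction for GC content and transcript length (-0.56 ± 0.11, adjusted p = 0.0487), but not without the block (adjusted p = 0.0524) or without limma's trend (adjusted p = 0.137). Without Th0+Dopa 2, Th0+Dopa 3, Th0 2 and Th0 3 in turn the adjusted p was 0.221, 0.157, 0.246 and 0.396, with differences of -0.67, -0.55, -0.65 and -0.57. Macrophages also make Zbp1, and the sums of their markers, given above, were lower in the same Th0+Dopa libraries; their part in the difference was not tested.

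The RNA helicase Ifih1 (MDA5) had 4.56 and 6.29 FPKM in Th0+Dopa and 8.50 and 9.33 FPKM in Th0 libraries, with no overlap and a difference of -0.64 ± 0.19 (adjusted p = 0.0938). Dhx58 (LGP2), which regulates MDA5, overlapped between groups at -0.13 ± 0.26. Ifi203, of the HIN-200 family, was at -0.50 ± 0.28, again without overlap (2.06 to 3.51 FPKM in Th0+Dopa and 3.85 to 4.73 FPKM in Th0 libraries). Ifi204, a DNA-binding HIN-200 protein best known from macrophages, was too low to be tested. It had 0.495 and 0.562 FPKM in Th0+Dopa and 1.24 and 1.10 FPKM in Th0 libraries, the lower pair being the cells with dopamine. Members of this family are close copies, so reads may be split between them.

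IFIT proteins bind RNA, IFIT1 that of viruses without the host's cap methylation, and their genes lie side by side on chromosome 19. Neither of the 2 tested passed. Ifit1 had 0.772 and 1.47 FPKM in Th0+Dopa and 2.03 and 3.94 FPKM in Th0 libraries, which stood for about 12.9 and 25.1 fragments in Th0+Dopa and 34.7 and 51.1 fragments in Th0 libraries. Its difference of -0.88 ± 0.29 had an adjusted p of 0.115, although both dopamine libraries were lower. Ifit2, the most abundant of the 4, was at -0.21 ± 0.16 with overlapping groups (8.53 and 10.5 FPKM in Th0+Dopa, 10.2 and 12.1 FPKM in Th0 libraries). Ifit3 and its close copy Ifit3b were not tested: Ifit3 had 0.648 to 0.933 FPKM in Th0+Dopa and 0.363 to 1.33 FPKM in Th0 libraries, and Ifit3b stood for about 1.0 fragment in each Th0+Dopa library and for about 2.0 and 3.1 fragments in Th0 2 and 3.

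The 2-5A synthetases make the messenger that activates RNase L, and most of their genes averaged under 1 FPKM. Of the 6 Oas and Oasl genes, Oas3 and Oasl2 were tested, and neither passed. Oasl2 had 0.414 and 0.729 FPKM in Th0+Dopa and 1.39 and 2.68 FPKM in Th0 libraries, a difference of -0.92 ± 0.33 (adjusted p = 0.141). Oas3 differed in sign between tables (0.79 and -0.14) and averaged 0.32 ± 0.37. Oas1a stood for about 3.1 fragments in each Th0+Dopa library, and for 5.1 and 10.2 fragments in Th0 2 and 3. Its near copy Oas1g had 0.111 and 0.110 FPKM in Th0+Dopa, and 0.158 and 1.19 FPKM in Th0 libraries, so its Th0 mean rests on Th0 3. Oas2 (0.0781 to 0.435 FPKM) and Oasl1 (0.275 to 0.362 FPKM) overlapped between groups.

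The 2 other RNA-directed effectors, both above 10 FPKM in every library, did not pass either. Isg20, a 3′ exonuclease that degrades single-stranded RNA, had 25.5 and 18.9 FPKM in Th0+Dopa and 33.9 and 36.8 FPKM in Th0 libraries. Both dopamine libraries were lower, with a difference of -0.66 ± 0.16 (adjusted p = 0.0597). Corrected for GC content and length it passed, at -0.88 ± 0.15 (adjusted p = 0.0329). Eif2ak2 (PKR), the double-stranded RNA kinase that halts translation, was at -0.31 ± 0.16 (adjusted p = 0.256), with 11.4 and 14.4 FPKM in Th0+Dopa and 16.2 FPKM in each Th0 library.

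Among the remaining direct antiviral effectors, 3 of 4 tested genes had a positive difference. Bst2 (tetherin; chromosome 8, 71534255 to 71537456), which holds budding virus particles at the cell surface, had 69.5 and 45.7 FPKM in Th0+Dopa 2 and 3, against 33.2 and 28.5 FPKM in Th0 2 and 3. Means were 57.6 ± 16.8 FPKM in Th0+Dopa and 30.9 ± 3.38 FPKM in Th0 libraries (SD, n = 2 each), a ratio of 1.87. Both dopamine libraries were above both others, although they differed among themselves by more than the Th0 libraries did, and Bst2 rose by 0.85 ± 0.14 (95% interval 0.51 to 1.19, limma adjusted p = 0.0202). After correction for GC content and length it did not pass (0.52 ± 0.12, adjusted p = 0.0636). Without Th0+Dopa 2, Th0+Dopa 3, Th0 2 and Th0 3 in turn the adjusted p was 0.311, 0.148, 0.308 and 0.527, with differences of 0.54, 1.17, 0.98 and 0.73. Without the block the adjusted p was 0.0988, and without limma's trend 0.105.

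Samhd1, a phosphohydrolase that limits the nucleotide pool available to reverse transcription, was abundant: it had 211 and 204 FPKM in Th0+Dopa and 128 and 161 FPKM in Th0 libraries. The groups did not overlap, at 0.53 ± 0.13 (adjusted p = 0.0564), and Samhd1 passed once corrected for GC content and length (0.65 ± 0.12, adjusted p = 0.0384). Mx1, a dynamin-like antiviral GTPase whose C57BL/6 allele is defective, was at 0.45 ± 0.30, with tables of 0.82 and 0.08. Mx2, annotated as a polymorphic pseudogene in GENCODE M21, stayed untested at 0.391 to 0.656 FPKM in Th0+Dopa and 0.852 to 0.895 FPKM in Th0 libraries. Cmpk2, a mitochondrial nucleotide kinase next to Rsad2 on chromosome 12, was at -0.35 ± 0.30. Rsad2 (viperin), which makes a chain-terminating nucleotide, was untested and overlapped, with 0.448 to 0.529 FPKM in Th0+Dopa and 0.321 to 0.695 FPKM in Th0 libraries.

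None of the 4 ADP-ribosylation factors passed, and all 4 differences were negative. Parp9, Dtx3l, Parp12 and Parp14 were each lower in both tables and without overlap between groups. Of all tested genes, 32.3% were lower in both tables, and 25.6% had both Th0+Dopa libraries below both Th0 libraries. The proteins Parp9 and Dtx3l, a ubiquitin ligase, form a complex. Parp9 had 39.97 and 48.5 FPKM in Th0+Dopa and 61.8 and 60.9 FPKM in Th0 libraries (-0.47 ± 0.13, adjusted p = 0.0730). Dtx3l had 25.98 and 32.2 FPKM in Th0+Dopa and 36.7 and 45.1 FPKM in Th0 libraries (-0.48 ± 0.12, adjusted p = 0.0575). Both lie head to head on chromosome 16 with 458 shared exon bases on opposite strands, 9.40% of the exon bases of Parp9 and 8% of those of Dtx3l, and Parp14 lies 54967 bases from Dtx3l. Whether counting used the strand is unknown here, so fragments in the shared stretch may be counted for either gene. Parp14, a mono-ADP-ribosyltransferase, was at -0.40 ± 0.13 (adjusted p = 0.127) and Parp12, another mono-ADP-ribosyltransferase, at -0.72 ± 0.30 (adjusted p = 0.185), with 0.724 and 1.32 FPKM in Th0+Dopa and 1.86 and 2.81 FPKM in Th0 libraries. When every library was scaled to the same sum, Parp9 and Dtx3l passed (-0.72 each, adjusted p = 0.0347 and 0.0271), beside the median of -0.20 over all genes in that scaling.

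None of the 4 tested genes of nuclear body and chromatin proteins passed. Sp100, a founding component of PML nuclear bodies, had 29.0 and 40.1 FPKM in Th0+Dopa and 36.04 and 46.4 FPKM in Th0 libraries. The groups overlapped, with the library numbered 3 the higher one in each, and the difference was -0.26 ± 0.12 (adjusted p = 0.218). Daxx, its partner and an H3.3 histone chaperone, was at 0.46 ± 0.18 (adjusted p = 0.176), with 8.56 and 9.497 FPKM in Th0+Dopa above 6.62 and 5.95 FPKM in Th0 libraries. Trim30a, which dampens Toll-like receptor signalling, was at 0.09 ± 0.13 and the PHD finger gene Phf11b at 0.15 ± 0.14, both with overlap. With a common sum these turned to -0.15 and -0.09, where the median of all genes was -0.20. Phf11d, a neighbour and relative of Phf11b, was untested (0.426 to 0.601 FPKM in Th0+Dopa and 0.263 to 0.807 FPKM in Th0 libraries).

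The remaining induced genes included the member with the most negative difference. Rtp4, a chaperone of G protein-coupled receptors, had 0.314 and 0.415 FPKM in Th0+Dopa and 2.33 and 2.57 FPKM in Th0 libraries. Both Th0+Dopa libraries were lower, with -1.34 in each table, and the mean difference of -1.34 ± 0.32 had an adjusted p of 0.0559. Rtp4 averaged 0.364 FPKM in Th0+Dopa, so it met the filter of 1 FPKM only through its Th0 mean of 2.45 FPKM. That limits what its adjusted p-values can show. Rtp4 passed when every library was scaled to the same sum (-1.47, limma adjusted p = 0.0298), where the median of all genes was -0.20. After correction for GC content and length it did not pass (-1.26 ± 0.31, limma adjusted p = 0.0751). Of its exon bases, 296 (13.9%) are shared with the same-strand noncoding gene Gm45338. Xaf1, a pro-apoptotic antagonist of XIAP, was also lower in both tables without passing: it had 7.38 and 6.67 FPKM in Th0+Dopa and 12.7 and 10.5 FPKM in Th0 libraries (-0.65 ± 0.17, adjusted p = 0.0664). Ifi44, of the same low range as Rtp4, was untested, with 0.0929 and 0.348 FPKM in Th0+Dopa and 0.518 and 1.05 FPKM in Th0 libraries. Tor3a, a torsin ATPase, was at -0.51 ± 0.23.

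Ifi27l2a, Ifi35 and Trafd1 had positive differences, none of which passed. Ifi27l2a had 296 and 219 FPKM in Th0+Dopa and 191 and 184 FPKM in Th0 libraries. The difference was 0.44 ± 0.13 (adjusted p = 0.0884). Ifi35, a partner of Nmi, had 58.5 and 48.7 FPKM in Th0+Dopa and 35.8 and 37.2 FPKM in Th0 libraries (0.54 ± 0.13, adjusted p = 0.0562). Both genes were higher in Th0+Dopa without overlap between groups and smaller after the GC and length correction (0.25 and 0.42). For Ifi35, 290 exon bases (16.8%) are shared with the opposite-strand gene Gm11626. Trafd1, a negative regulator of innate signalling, was at 0.23 ± 0.13. Lgals3bp, a secreted glycoprotein, had 9.22 and 20.01 FPKM in Th0+Dopa and 15.2 and 16.2 FPKM in Th0 libraries, with tables of -0.67 and 0.29. Epsti1 likewise differed in sign between tables (0.24 and -0.49).

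Th0 3 held the top value of 26 of the 47 genes, of 8 of the 11 untested genes and of 18 of the 36 tested (50%, against 29.7% of all tested genes). Ifnb1, the gene of interferon beta, was listed at 0 in both Th0+Dopa libraries and in Th0 2, and at 0.613 FPKM in Th0 3, which stood for about 2.2 fragments; Th0 3 also had the most genes above 0. Of the 13 tested members with a mean FPKM under 5, 11 were negative (median -0.50). Of the 23 with a mean of at least 5, 13 were negative (median -0.12). This split was chosen after the values were seen, and no share over all genes of the same range stands beside it. Rtp4 and Oasl2, the most negative members, averaged 0.364 and 0.572 FPKM in Th0+Dopa libraries. They passed the filter only through their Th0 means of 2.45 and 2.03 FPKM, so the filter itself shaped part of this split. The filter at 1 FPKM left Ifi204 (mean 0.8498 FPKM) and Ifit3 (0.818 FPKM) just outside, and Oasl2 (1.30 FPKM) and Oas3 (1.38 FPKM) just inside.

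Members with a positive difference tended to have shorter transcripts richer in GC. Across the 36 tested genes, which share the same 4 libraries, the difference correlated with GC content at Spearman's rho = 0.34 (Pearson's r = 0.38) and with log transcript length at rho = -0.38 (r = -0.41). Over all 11284 tested genes with values these were rho = 0.35 (r = 0.27) and rho = -0.18 (r = -0.20). The 12 members with a positive difference had a median GC content of 52.8% and a median transcript length of 1252 bases, and the 24 with a negative one 48.3% and 1621 bases. After each table was corrected for GC content and length, the median of the 36 was -0.23, against 0.05 over all genes, and 24 remained negative. The 9 tested genes with an ISRE match had a median difference of 0.09, with 4 negative and a range from -0.88 (Ifit1) to 0.85 (Bst2). The 18 tested genes whose windows held none had -0.23, with 13 negative. Over all 328 tested genes with a match the median was -0.03. Tested members without a window, among them Zbp1, Rtp4 and Ifi27l2a, are in neither group, and the difference between the groups was not tested.

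**Figure D4:**
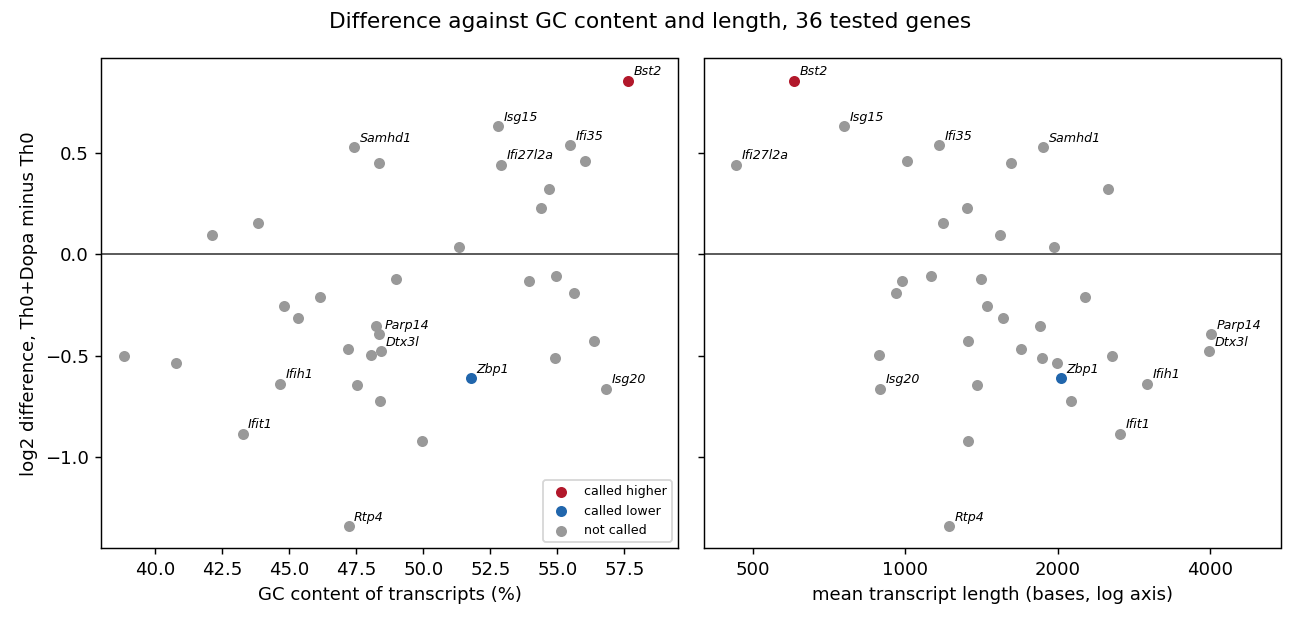
log2 difference (Th0+Dopa minus Th0) of the 36 tested genes against the GC content of their transcripts, left, and their mean length on a log axis, right. Red marks Bst2 and blue Zbp1, the 2 calls. Bst2, Isg15 and Ifi27l2a are short and lie above 0, while Parp14, Dtx3l, Ifih1 and Ifit1 are long and lie below 0.

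**Figure D5:**
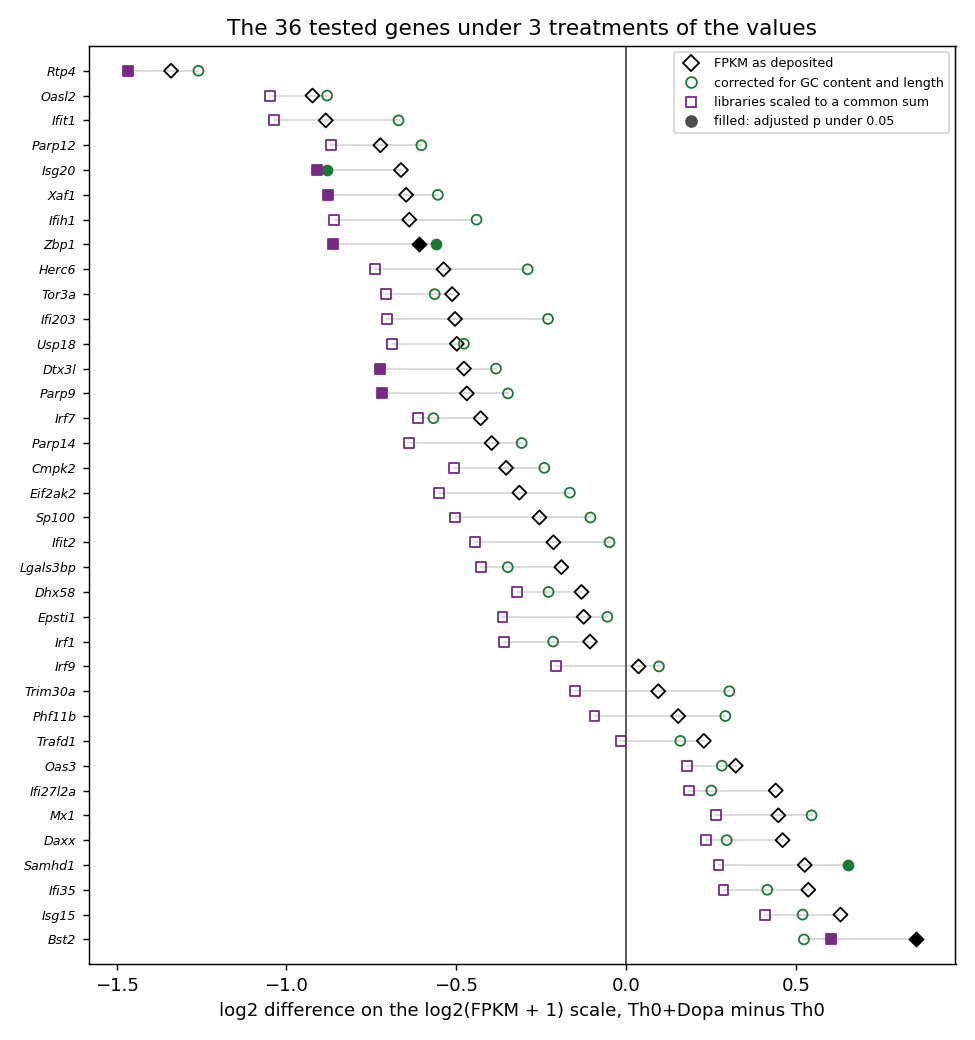
log2 differences of the 36 tested genes with FPKM as deposited (diamonds), after correction for GC content and length (circles) and with libraries scaled to a common sum (squares); filled symbols passed at an adjusted p of 0.05. The common sum moves each of the 36 genes left, as it does the median of all genes, and Zbp1 is filled in all 3.

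The surrounding pathway was read from 105 genes in 7 lists, of which 88 were tested. Of the 88, 3 rose (3.41%, against 6.28% of all tested genes) and 9 fell (10.2%, against 4.39%). The lists were chosen with earlier results of these data known, so these shares describe the lists and are no independent support. Of the 9 that fell, 6 belong to the list of other interferon-induced genes. Of 9 interferon genes only Ifng was tested, at 3.94 and 3.63 FPKM in Th0+Dopa and 4.50 and 4.17 FPKM in Th0 libraries (-0.16 ± 0.22, adjusted p = 0.684), and 6 were listed at 0 in every library. None of 5 tested receptor genes passed: Ifnar1 was at -0.39 ± 0.14 (adjusted p = 0.152) and Ifnar2 had a 95% interval of -0.41 to 0.41 (adjusted p = 0.999). Of the 6 kinases and STATs, Stat3, which mainly serves interleukins of the IL-6 family, fell by 1.15 ± 0.11 (adjusted p = 0.00445). Stat2 was at -0.22 ± 0.19, and Jak1 and Jak2 were at -0.46 ± 0.11 and -0.44 ± 0.11 (adjusted p = 0.0547 and 0.0586).

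Of 9 other interferon regulatory factors and their partners, Irf4 (0.51 ± 0.11, adjusted p = 0.0419) and Irf8 (0.71 ± 0.11, adjusted p = 0.0156) rose, both known from lymphocyte and myeloid differentiation. With a common sum neither did (adjusted p = 0.205 and 0.0721). Of 10 brakes on receptor signalling, Socs1, a JAK inhibitor, rose by 1.26 ± 0.18 (adjusted p = 0.0142), to 60.6 and 40.5 FPKM in Th0+Dopa, against 19.7 and 20.6 FPKM in Th0 libraries. The phosphatases Ptpn1 (-0.77 ± 0.12, adjusted p = 0.0187) and Ptpn6 (-0.46 ± 0.10, adjusted p = 0.0446) fell. None of 13 tested upstream sensors and adaptors passed.

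Of 44 other tested interferon-induced genes, 6 fell and 0 rose, against 4.39% and 6.28% of all tested genes, with a median of -0.18. The 6 were Ifitm1, Ifitm2, Ifitm3, Tent5a, Ube2l6 and Ms4a6b. The last of these, of the Ms4a membrane protein family, was abundant, with 174 and 167 FPKM in Th0+Dopa and 313 and 308 FPKM in Th0 libraries (-0.86 ± 0.10, adjusted p = 0.00773), and Tent5a fell by 1.15 ± 0.17 (adjusted p = 0.0148). Ifitm3, a membrane protein that blocks viral fusion, had 8.17 and 9.18 FPKM in Th0+Dopa and 25.3 and 35.5 FPKM in Th0 libraries (-1.68 ± 0.15, adjusted p = 0.00379). Its neighbour Ifitm1 was at -1.496 ± 0.14 (adjusted p = 0.00372) and Ifitm2 at -0.53 ± 0.11 (adjusted p = 0.0376). Ube2l6, the conjugating enzyme of the ISG15 pathway described above, had 3.69 and 8.33 FPKM in Th0+Dopa and 12.1 and 15.4 FPKM in Th0 libraries (-1.15 ± 0.22, adjusted p = 0.0317). These 6 passed after the GC and length correction as well. They also passed with a common sum, where the median of all genes was -0.20, so that scaling favours falls. Ifitm genes are also expressed by myeloid cells, whose marker sums were lower in the same Th0+Dopa libraries, as given above, and their part in these falls was not tested.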

How the data were processed

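The authors deposited FPKM in 2 tables made separately, 1 for the libraries numbered 2 and 1 for those numbered 3. The submitters' processing notes name Cufflinks 2.2.1, STAR 2.4.2, Trimmomatic 0.35, FastQC 0.10.1 and bcl2fastq 1.8.4, and mm10 as the build; they leave out the annotation, the normalization options and any use of strand. Per the labels' protocols, libraries were stranded total RNA depleted of ribosomal RNA and globin mRNA. GENCODE M21 (GRCm38) named 36423 of 38282 IDs and gave coordinates, transcript GC content and length.

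limma 3.58.1 (lmFit, eBayes with trend, two-sided) in R 4.3.3 was fitted on log2(FPKM + 1) for the 11423 genes averaging 1 FPKM or more, with the table as a block. This left 1 residual degree of freedom, to which the prior added 4.70. The script was tested on simulated data. The block stands for the separate tables; no label says that a number marks a shared culture. The fragment value came from single-transcript genes, of which 84.7% to 85.5% of low values lay within 0.15 of a whole fragment. Read counts were not used.

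The members and lists were chosen with earlier results of these data known. By the naming rule, all members are named. Values in every library are due for those that passed, the 8 with the highest mean FPKM, and Isg15, Irf7, Irf9, Irf1, Usp18, Bst2 and Ifi204; others were given in full after their values were seen. One pathway gene that the rule names is not reported here. The alternatives changed the pseudocount, the filter, the scaling, limma's settings or the block, corrected for GC content and length (loess, span 0.3), or left out each library.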

Additional observations from a re-analysis of the deposited data

How the results depend on the processing

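With a pseudocount of 0.1, 3 of 36 members were called higher and 4 lower, against 906 and 631 of all 11423 tested genes. A pseudocount of 0.5 gave 3 and 2 members, against 822 and 578 of all tested genes. With a filter at 0.3 FPKM, 1 of 45 members was called higher and 2 lower, against 551 and 406 of 13848 genes. Scaling to a common sum gave 1 and 6 and a median of -0.51, and leaving out small RNA first gave 2 and 9 and -0.42. Over all genes these scalings called 375 and 624 higher and 1070 and 1247 lower, against 717 higher and 501 lower as deposited, with medians of -0.20 and -0.11. The GC and length correction with the replicate block gave 1 and 2 (Samhd1 higher, Isg20 and Zbp1 lower) and a median of -0.23. Over all 11284 genes it called 487 higher and 381 lower. Without limma's trend 0 were higher and 1, Rtp4, lower, and over all genes 106 were higher and 150 lower. Without the replicate block 0 and 0 passed (Bst2 adjusted p = 0.0988, Zbp1 adjusted p = 0.0524). Over all genes 256 were then higher and 240 lower, so the shares of all tested genes called also depend on the block. Same-numbered libraries' deviations correlated at 0.087 over 11423 genes, so the numbers show no clear pairing. With no filter the median was -0.26. In limma fits that left out a library, with no block and libraries scaled by the median of ratios, the lone library was assumed to vary like the others; 0 members were called in either direction, at most 1 gene was called higher and 2 lower over all genes, and the median ran from -0.43 to -0.14.

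With a common sum, 4 differences changed sign: Irf9 (-0.207), Phf11b (-0.093), Trim30a (-0.150) and Trafd1 (-0.015). With small RNA left out first, Irf9 (-0.104) and Trim30a (-0.046) did. Leaving out a library turned Irf9 (-0.0056 without Th0 2, -0.039 without Th0+Dopa 3; range -0.039 to 0.112), Irf1 (0.0034 without Th0+Dopa 3; range -0.217 to 0.0034), Lgals3bp (0.313 without Th0+Dopa 2; range -0.695 to 0.313) and Epsti1 (0.207 without Th0 3; range -0.457 to 0.207). Bst2 and Zbp1 kept their sign in all 15 alternatives, but most of these could hardly have changed it. Changing the filter, limma's settings or the block leaves the difference itself as it was. The groups did not overlap for either gene, so another pseudocount or a library left out could hardly turn it. The 11 members averaging under 1 FPKM were left out of the main test.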
